A study of Homo sapiens with 2 samples.

Results

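The oligos described here are the 9747 probes of an Agilent human expression array whose identifier in the array design is an Ensembl transcript. They were chosen as all non-control probes whose systematic name starts with ENST, and they make up 16.7% of the 58201 non-control probes. RNA came from H9, a human embryonic stem cell line grown in the defined medium TeSR-E8. The study kept H9 on vitronectin and moved cells at passage 35 to Matrigel, an extracellular matrix preparation. The sample labels give no matrix, so the matrix of the cells on each array is not known here. One array held RNA of substate 1 at passage 35 and one held RNA of substate 2 at passage 50. The study sorted colonies into substate 1 by strong staining for the R-10G epitope with almost no vimentin, and into substate 2 by weaker staining for the epitope with strong vimentin and wide spaces between the cells. Substate, passage and any difference in matrix cannot be told apart in this design, and both groups come from 1 cell line. Since each substate had 1 array, the substates could not be tested against each other, differences have no replicate check, and every value below compares these 2 libraries. In RNA from many cells, fewer cells that express a transcript and less of it per cell cannot be told apart.

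Ensembl assigns each spliced form of a gene its own transcript identifier, and its catalogue covers protein-coding isoforms, long noncoding RNAs, antisense transcripts and pseudogenes. An expression array measures such a form through a short oligo that binds its labelled copy, so a probe reads every form that holds its target, and a pseudogene or isoform can share that target with a related transcript. Long noncoding RNAs are as a class less abundant than messenger RNAs and more restricted to particular cell types, and pluripotent cells express a number of them. The scanner files pair none of these transcripts with a gene. The table of gene names used (RefSeq, assembly GRCh38.p14) held no Ensembl identifiers, so the 8811 transcripts could not be looked up in it. The members are therefore given by transcript and probe identifier, without gene, position or sequence. A probe with this annotation may measure a gene that also has probes under another accession.

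The labels of both arrays were checked on probes with a RefSeq accession. The probe of VIM, which encodes vimentin, was higher in substate 2 by 2.53 on the log2 scale, and that of CDH1, which encodes the epithelial adhesion protein E-cadherin, differed by -1.47. All 8 genes of the 9 listed for human embryonic stem cells that had a probe, POU5F1, NANOG and SOX2 among them, were measured on both arrays, with normalised log2 signals of 4.55 to 9.07 in substate 1 and 4.73 to 9.36 in substate 2. Of the 17 genes listed for blood and immune cells 14 had a probe, and 11 of these were measured on both arrays. The 12 of their 24 probes measured on both arrays had signals of -3.48 to 3.14 and -3.26 to 3.39. The part of such cells in the results below was not tested. The arrays shared 1 slide and 1 scan.

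The first question was how many of these transcripts the arrays detected. A probe counted as measured on an array where the scanner software marked its spot as well above background. On both arrays 3200 of the 9747 members (32.8%) were measured, against 51.3% of all 58201 probes and 75.1% of the 25277 probes with a RefSeq messenger RNA accession. A further 471 members (4.83%) were measured on the substate 1 array only and 144 (1.48%) on the substate 2 array only, and 5932 (60.9%) were near background on both. The share of the members lay among those of the annotations of noncoding RNA, where 41.2% of the probes with a RefSeq noncoding accession, 31.9% of those with a TCONS name and 25.1% of those with an lnc- name were measured on both arrays. Taken by array, 3671 members (37.7%) were measured in substate 1 and 3344 (34.3%) in substate 2, where the corresponding shares of all probes were 55.6% and 52.8%. The lower share in substate 2 was therefore found in all probes as well. At the limit of detection the classes overlapped in signal. The dimmest member marked as well above background had a signal of 14.5 units in substate 1 and 15.0 in substate 2, whereas the brightest member without the mark had 20.1 and 23.3. No member was saturated on either array. With the weaker flag for a positive and significant signal, 5177 members counted as measured on both arrays.

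Detection also differed within the members by the series of the probe name. The 3083 members with names in the A_23, A_24, A_32 or A_33 series were measured on both arrays in 53.1% of cases, and the 6664 members of the A_19, A_21 and A_22 series in 23.5%. Messenger RNA probes of the same groups of series were measured in 75.4% and 68.2% of cases, so the gap was wider among the members. The highest share among the members was 71.1% of the 488 probes of the A_24 series and the lowest 20.6% of the 4021 probes of the A_22 series. By transcript number, which follows the order in which Ensembl issued its identifiers only roughly, 50.6% of the 1071 members with a number below 400000 were measured on both arrays. The share was 32.1% for the 4079 members with numbers from 400000 up to 500000, 26.7% for the 4046 from 500000 up to 600000 and 48.6% for the 551 from 600000, so it did not fall steadily with the number. Among those from 500000 up to 600000 the A_19, A_21 and A_22 series again had the lower share (21.2%, against 50.7% for the other series).

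Members measured on both arrays were dimmer than messenger RNA probes. Their normalised log2 signal, averaged over both arrays, had a median of -1.38, compared with 0.82 for messenger RNA probes and -0.11 for all measured probes. When all measured probes were divided into 4 equal groups by this signal, 37.8% of the members lay in the dimmest and 16.0% in the brightest group, while 15.0% and 32.9% of the messenger RNA probes did. A probe's signal depends on its own sequence as well as on its transcript, so signals of different probes are not compared as transcript levels. Among the 5 brightest members, ENST00000589138 stood at 9.90 in the substate 1 array and at 10.20 in the other, which is a difference of 0.29. ENST00000361624 stood at 9.70 and 9.71, ENST00000429276 at 9.59 and 9.63, and ENST00000532619 at 9.50 and 9.55. The values of these 3 members differed by 0.01, 0.03 and 0.05, against a spot noise of 0.07. For members this bright the scaling set the direction. After quantile normalisation ENST00000589138 differed by -0.07 and the other 3 by -0.19, -0.17 and -0.16, and after loess centring on signal the 4 differed by 0.03, -0.25, -0.22 and -0.21. Here spot noise is the SD of a difference between single spots, taken from probes printed 10 times. It holds no part of the variation between cultures, RNA samples or labelling reactions.

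The second question was how the members differed between the substates. Differences are substate 2 minus substate 1 on the log2 scale after each array was set to its 75th percentile. Over the 3200 members measured on both arrays the median difference was 0.01, with quartiles of -0.28 and 0.25 and an SD of 0.42 across probes. The median was 0.06 over all measured probes and 0.09 over messenger RNA probes. Above 0 lay 1618 members (50.6%), against 60.9% of the messenger RNA probes. Medians just below 0 were found for the annotations of noncoding RNA, with -0.03 for RefSeq noncoding, -0.04 for lnc- and -0.07 for TCONS probes.

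The size of the differences followed the signal. In the dimmest of the 4 groups the members had a median difference of -0.05 and an SD of 0.46, and in the brightest a median of 0.20 and an SD of 0.29. Messenger RNA probes moved in the same way with signal, from a median of 0.00 and an SD of 0.50 to 0.17 and 0.27. In median and SD the members thus lay near the messenger RNA probes at these ends. Between these ends, members in the second group had a median of -0.06 and those in the third of 0.02, where messenger RNA probes had 0.02 and 0.08. The SD in the third group was 0.39 for members and 0.32 for messenger RNA probes. From the dimmest to the brightest group, 3.31%, 3.08%, 1.93% and 0.58% of the members were 2-fold or more different. The shares of messenger RNA probes were 5.16%, 3.11%, 0.97% and 0.37%. Most members differed little in absolute terms. Differences under 0.10 were found for 624 members (19.5%), from 0.10 to 0.25 for 907 (28.3%), from 0.25 to 0.50 for 1058 (33.1%) and from 0.50 to 1 for 529 (16.5%). In the last of these bands 198 members were higher and 331 were lower in substate 2, and over all probes 1951 were higher and 2213 lower.

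A 2-fold difference, or 1 on the log2 scale, was used as a rule of size. By this rule 26 of the 3200 members (0.813%) were higher in substate 2, against 0.85% of all probes measured on both arrays. Lower in substate 2 were 56 members (1.75%), against 1.26% of all probes. The share of higher members was thus near the background and that of lower members somewhat above it. The latter lay among the shares of the annotations of noncoding RNA. Lower by this rule were 1.61% of RefSeq noncoding, 2.01% of TCONS and 2.16% of lnc- probes measured on both arrays, and 0.974% of messenger RNA probes. With normexp background correction, which models the background of the median spot signals and then adds a constant, 3 higher and 12 lower members were left. Where both signals had to be well clear of the detection limit, 7 and 30 were left. Of the 56 lower members 43 belonged to the A_19, A_21 and A_22 series, which held 1563 of the 3200 measured members, and 13 to the other series. These are 2.75% and 0.794% of the measured members of each. Probes of other annotation also were lower more often in the first of these groups of series, with 1.83% of 5639 probes against 1.04% of 21044. The 26 higher members were split into 14 and 12. The lower members had a median mean signal of -1.51, close to that of all measured members, whereas the higher members were dimmer at -2.84. The members nearest to the limit had differences of 1.02 and 0.998 on the higher side, and of -1.001 and -0.9998 on the lower side, so that spot noise alone could move members across it.

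The member with the largest difference towards substate 2 was ENST00000563727 (probe A_33_P3718679). It had a value of -0.74 in substate 1 and 1.89 in substate 2 (normalised log2 signal), a difference of 2.63 or 6.19-fold. This was also the brightest of the 10 members with the largest positive differences. ENST00000397559 went from -3.90 to -1.65, which is 4.77-fold higher, and ENST00000595005 from -2.99 to -0.87, which is 4.37-fold higher. For both, the substate 1 value lay within 2 log2 units of the dimmest measured probes. The other 7 members at this end were ENST00000566922 (1.88), ENST00000539856 (1.68), ENST00000613353 (1.68), ENST00000554412 (1.50), ENST00000481132 (1.44), ENST00000443465 (1.37) and ENST00000419347 (1.35), in order of their difference. In substate 1 their signals were between -4.07 and -3.12, near the lower end of what the array measured. For 2 of the 10, ENST00000554412 and ENST00000613353, a second probe of the transcript was near background on both arrays.

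The members with the largest differences towards substate 1 were mostly brighter. ENST00000514844 (probe A_19_P00322523) went from 0.44 in substate 1 to -1.47 in substate 2, a difference of -1.90 or 3.74-fold. ENST00000514255 (A_21_P0003981) went from -0.16 to -1.99, a difference of -1.84. ENST00000433639 (A_21_P0012365) went from -2.02 to -3.78, a difference of -1.76. None of these transcripts had a second measured probe. In the same set, ENST00000419695 differed by -1.64, ENST00000417922 by -1.60, ENST00000435157 by -1.58 and ENST00000370139 by -1.49. In substate 2, ENST00000433639, ENST00000417922, ENST00000435157 and ENST00000370139 stood between -3.86 and -3.34, near the lower end of what the array measured. With normexp correction these differed by -0.57 to -0.66, short of 2-fold. ENST00000514844, ENST00000514255 and ENST00000419695 stayed past it, at -1.32, -1.33 and -1.07. The remaining 3 probes of the 10 belonged to ENST00000512067 and ENST00000411856, each of which had another measured probe.

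Probes that share a transcript gave a check within the arrays. Of the 8811 transcripts, 7925 had 1 probe, 838 had 2, 46 had 3 and 2 had 4. Probes of 1 transcript share the library and the hybridisation and may overlap in sequence, so they are not replicates of a substate. In 3 transcripts every measured probe was 2-fold or more lower in substate 2. For ENST00000512067 the probe A_19_P00318559 read 1.59 in substate 1 and -0.29 in substate 2, a difference of -1.88, and the probe A_33_P3821778 had 0.04 and -1.67, a difference of -1.72. The differences of these probes lay 0.16 apart. ENST00000411856 went from 0.26 to -1.43 on one probe (-1.69) and from 1.51 to 0.04 on the other (-1.47). ENST00000366424 went from 2.06 to 0.89 (-1.17) and from 1.46 to 0.27 (-1.20). In each of these cases all probes of the transcript were brighter in substate 1. ENST00000548368 came close to the rule on both probes, with differences of -1.04 and -0.93.

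In the other direction 1 transcript had every measured probe 2-fold or more higher in substate 2. The 3 lower and 1 higher were out of 116 member transcripts with several measured probes. Of the 2913 messenger RNA accessions with several measured probes, a much larger set, 4 had all of them higher and 6 all lower by this rule. The higher member transcript was ENST00000272233, with signals of -0.82 and 0.26 on one probe (1.08) and of -1.89 and -0.56 on the other (1.32). With normexp correction both fell short of the rule, at 0.94 and 0.90, while all probes of the 3 lower transcripts stayed past it. ENST00000566922, with differences of 1.88 and 0.55, had a slightly larger mean than ENST00000272233 (1.22 against 1.20). ENST00000615095 followed with differences of 0.70 and 0.81 on its probes. The next transcripts with all probes higher differed by less. ENST00000505632 was higher by 0.38 and 0.44, and the bright ENST00000436473 by 0.44 and 0.40, from signals of 7.72 and 8.12 in substate 1. The differences of ENST00000436473 were 0.28 and 0.17 after quantile normalisation and 0.22 and 0.17 after loess centring.

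Across the 116 transcripts with at least 2 probes measured on both arrays, the probes of a transcript lay a median of 0.18 apart in their difference, with quartiles of 0.08 and 0.37 and a maximum of 1.45. All probes of a transcript lay on the same side of the median difference of all measured probes for 82 of them (70.7%, 95% Wilson interval 61.9% to 78.2%, which covers counting error only). For 2913 messenger RNA accessions the median distance was 0.14 and the share 74.4%, inside that interval. The correlation of the difference between probes of a transcript was 0.60 (Pearson's r across 116 transcripts, which share both libraries). It was 0.77 over the 58 transcripts of brighter signal and 0.31 over the 58 dimmer ones. Messenger RNA accessions split at the same signal had 0.67 over 2555 brighter and 0.57 over 358 dimmer ones. Where a probe differed by 0.50 or more, all probes were on the same side for 25 of 36 transcripts (69.4%), and for 442 of 519 messenger RNA accessions (85.2%).

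Some probes of a transcript disagreed. The brightest case was ENST00000448179, whose probe A_33_P3471712 read 9.58 in substate 1 and 9.82 in substate 2, a difference of 0.24. On its other probe, A_21_P0000909, the signals were -2.29 and -3.50, a difference of -1.21. The probes of this transcript differed in sign by this scaling, whereas after loess centring on signal the first stood at -0.01 and both were below 0. ENST00000440100 differed by 1.33 on one probe and -0.06 on the other, and ENST00000544155 by -1.46 and -0.32. In ENST00000427048, which had 3 measured probes, the differences were -0.40, -0.62 and -1.34, so the direction was shared and the size was not. ENST00000617377, ENST00000413043, ENST00000478745, ENST00000457668 and ENST00000607822 each had a probe that was higher and one that was lower. Their values were 0.93 and -0.42, 0.60 and -0.48, 0.68 and -0.50, 0.74 and -0.20, and 0.15 and -0.85. With normexp correction the lower probes of ENST00000413043, ENST00000457668 and ENST00000440100 turned to 0.05, 0.08 and 0.08.

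Detection was compared between the probes of a transcript as well. Of the 886 transcripts with several probes, 113 (12.8%) had all of them measured on both arrays and 492 (55.5%) had all near background on both, while 188 (21.2%) had a probe of each kind. Among the 838 transcripts with exactly 2 probes, 420 probes were measured on both arrays, and for 216 of them (51.4%) the other probe was measured as well. For messenger RNA accessions this share was 90.3%. There 5511 probes of 3530 accessions with 2 probes were measured, so measured probes were far more frequent to begin with. The shares are therefore not compared as agreement between probes of a transcript. Both transcripts with 4 probes were unlike in this. Both arrays measured all 4 probes of ENST00000624628, which differed by -0.16, -0.10, -0.06 and 0.05. Of the 4 probes of ENST00000407635 1 was measured on both arrays (0.39), 1 in substate 1 only and 2 on neither. Of the 46 transcripts with 3 probes, 4 had all 3 measured on both arrays and 25 had none.

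For most members past the 2-fold rule no second probe was there to compare. Of the 26 higher members 18 had none, 3 had another measured probe that was also higher, 1 had another that was lower, and for 4 the other probe was near background. Of the 56 lower members 42 had no second probe, 10 had another measured probe that was lower as well and 1 had another that was higher. Another 2 had a probe measured on 1 array, and 1 had a probe near background. The probe lower by 2-fold whose partner was higher is that of ENST00000448179 described above.

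Members measured on 1 array only were given a lower bound, by setting the measured value against the dimmest signal that counted as measured on the other array, or against the probe's own value there if that was higher. Some members without the mark were brighter than that dimmest signal, so "at least" holds only under this definition. All 144 members measured in substate 2 only had a bound, with a median of 1.70-fold, and 46 of them (31.9%) were at least 2-fold higher, against 31.4% of all such probes. Of the 471 members measured in substate 1 only, 408 had a bound above 1-fold, and 29 of the 471 (6.16%) were at least 2-fold lower in substate 2, against 7.13% of all such probes. Both shares of the members were near the background. With normexp correction 6 members were left past the rule in the first direction and 0 in the second. The substate 2 array had the higher floor, which makes a bound towards lower values smaller. ENST00000519306 was at least 8.38-fold higher in substate 2, with a signal of -1.37 there and -5.72, not well above background, in substate 1. Its second probe was near background on both arrays. ENST00000423727 (-1.42 in substate 2) was at least 8.11-fold and ENST00000366952 (-1.49 in substate 2) at least 7.72-fold higher, and both lay below -6 in substate 1. ENST00000461118 was at least 5.14-fold and ENST00000546784 at least 4.54-fold higher. With normexp correction the differences of these named members ran from 1.09 to 1.70.

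In the other direction the bounds were smaller. ENST00000550177, with a signal of -1.98 in substate 1, was at least 4.64-fold lower in substate 2, where it was not well above background at -6.39. Its second probe was near background on both arrays. ENST00000555150 was at least 4.58-fold lower. ENST00000418076, ENST00000444871 and ENST00000419658 were at least 3.59-fold, 3.49-fold and 3.37-fold lower. With normexp correction the differences of these named members ran from -0.51 to -0.97, short of 2-fold. In ENST00000423380 and ENST00000428673 a probe measured on both arrays and one measured in substate 1 only were both lower in substate 2, and in ENST00000607823 both probes were measured in substate 1 only. In 2 other transcripts, ENST00000291592 and ENST00000416620, 1 probe was measured in substate 1 only and another in substate 2 only, none of them past a bound of 2-fold.

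The Z-score of the study, which subtracts the mean difference over all probes and divides by their SD, was applied to the members for comparison. A probe passed it when it was 2.53-fold or more higher or 2.29-fold or more lower in substate 2. Above the upper limit were 382 members (3.92%), against 3.03% of all probes, and below the lower limit were 384 (3.94%), against 3.3% of all probes. Of these 766 calls 528 (68.9%) were members near background on both arrays, for which no fold is given here, and over all probes this share was 63.5%. Among members measured on both arrays, 11 were above and 26 were below the limits. With the mean and SD also taken over probes measured on both arrays, these counts were 53 and 137. With a median and an SD from the median absolute deviation, 781 of all 9747 members were above and 1368 below. Taken within the members near background on both arrays, 5.12% were above and 3.78% below, where the shares of all such probes were 5.16% and 4.19%.

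A pair of members was printed 10 times, so that their spots give an error within each array. The spots of ENST00000496953 (A_23_P109677) averaged 6.30 ± 0.024 in substate 1 and 6.70 ± 0.043 in substate 2 on the normalised log2 scale (SD of 10 spots each), a difference of 0.40. ENST00000555069 (A_23_P106145) had 1.19 ± 0.055 (10 spots) and 0.83 ± 0.043 (9 spots), a difference of -0.36. The spots of neither member overlapped between the arrays. Over all probes printed 10 times the median SD between spots was 0.046 in substate 1 (293 probes) and 0.052 in substate 2 (291 probes). These spots are of 1 RNA sample each, so this separation concerns the arrays and not the substates.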

How the data were processed

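Cy3-labelled RNA of each of the 2 H9 samples was hybridised to 1 single-colour Agilent array. The authors deposited the scanner output with spot intensities. Feature Extraction 11.5.1.1, per the file headers, with the protocol GE1_1105_Oct12 made the background-subtracted intensity and the detection flags, and the design was annotated on hg19. The authors also deposited a matrix of log2 values set to the 75th percentile, from which the values computed here differed by 1 constant for each array (100% of probes, tolerance 0.01). Here, intensities were floored at 1 and put on the log2 scale, outlier spots were dropped, the remaining spots were averaged per probe and each array was set to its 75th percentile over all non-control probes (Python 3.11.15, pandas 2.3.3).

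The 2-fold rule, the bounds and the Z-score limit of 2 were applied to all probes, and no test was made. Members and lists were chosen with earlier results of these data known. Named were the 10 largest rises and falls, the 5 largest bounds each way, the 5 brightest members, and the transcripts whose measured probes went together (the 5 largest mean rises and falls) or lay farthest apart (10). All probes of a transcript past 2-fold and those printed 10 times were added after their values were seen. Gene lists and agreement with probes of the same gene were not analysed, since no transcript could be tied to a gene here. Alternatives were median, quantile and loess centring (span 0.3), normexp correction (limma 3.58.1, offset 50), the deposited matrix, outlier spots kept, other detection rules and other Z-score denominators. The steps were tested on simulated data made from a single array, with known shifts added to brighter probes. Dim probes, changes of detection class, bounds, Z-scores and agreement between probes of a transcript were not part of that test. The number of arrays limits the precision.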

Additional observations from a re-analysis of the deposited data

How the results depend on the processing

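No paired analysis was possible because there was a single array for either substate, which also meant that none could be left out. Under median, quantile and loess centring, the deposited matrix and kept outlier spots, the median difference of the members moved by less than the spot noise and every count by less than 1.5 times (26 to 32 members 2-fold higher and 49 to 57 lower), and no member past the rule changed sign. Loess centring gave 473 members above and 310 below the Z-score limits, against 382 and 384. The 5 brightest members moved by more than the spot noise under quantile and loess centring. Normexp correction, whose offset of 50 exceeds the dimmest measured signals, left 3 higher and 12 lower members, 6 and 0 by a bound, and 76 above and 248 below the Z-score limits. With the weaker flag for a positive and significant signal, 5177 members were measured on both arrays, 1043 in substate 1 only and 746 in substate 2 only, and 257 were 2-fold higher and 300 lower. Against the 99th percentile of the negative control spots 4435 were measured on both arrays, 1377 in substate 1 only and 329 in substate 2 only. Where both signals had to be 4 times the dimmest measured signal, 7 higher and 30 lower members were left. With score and count restricted to probes measured on at least 1 array, the Z-score called 96 above and 168 below, 53 and 137 for those measured on both, and 781 and 1368 with the median absolute deviation. The same-side share of probes of a transcript, a measure chosen after seeing the data in place of agreement within genes, ran from 62.1% under normexp to 70.7%. Normexp used the median signals, also a choice made after seeing the data. The alternatives that needed gene symbols were not run.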
